A study of Mus musculus with 12 samples.

Results

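The 84 mRNA probes described here gave lower signals after POVPC than after its vehicle DMSO, both in mouse aortic SMC with non-target siRNA (siNT) and in cells with siRNA to Oct4 (siOCT4). They are 84 of 22358 mRNA probes considered, which is 0.376% of them. A probe was taken where, in each background, the highest of the 3 POVPC arrays lay below the lowest of the 3 DMSO arrays and the mean log2 difference was at most -1, in the authors' table of log2 values. These values chose the members, so the POVPC differences below are descriptions and carry no test. The condition was met by 254 probes in siNT cells (1.14%) and by 469 in siOCT4 cells (2.10%). The 84 were 33.1% of the first set and 17.9% of the second. The study's table of mRNAs, which lists genes by their POVPC response in siNT cells, names 45 of the 84, and 39 have no name here. Only a part of that table was used, so a gene list below can miss members.

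Primary MASMC were given either siRNA for 48 h without serum and then POVPC at 10 µg/mL or DMSO for 24 h. This made 4 groups of 3 arrays, with siNT-DMSO and siOCT4-DMSO as the vehicle groups of siNT-POVPC and siOCT4-POVPC. All cells received an siRNA, and the knockdown is a transient one in culture. The labels do not say whether the 3 samples of a group came from separate cultures, so p-values measure the spread between these samples, which may be technical. The number of probes above background ran from 48998 on siOCT4-POVPC 2 to 55321 on siNT-POVPC 3, no spot was saturated, and the number of arrays limits the precision. All siNT arrays and siOCT4-DMSO 1 and 2 were assigned to a slide, and siOCT4-DMSO 3 and the siOCT4-POVPC arrays to another. siOCT4-POVPC vs. siNT-POVPC therefore cannot be told apart from the slide. No sample label names a slide, so the slide here and below is a grouping inferred from the scanner files. In bulk RNA, fewer cells of a type and less RNA per cell cannot be told apart. Of 11 smooth muscle markers listed, only Tagln and Smtn have a named probe, and neither is a member. Tagln, an actin-binding protein of contractile SMC, was at 5.41 ± 0.16 in siNT-DMSO and 4.61 ± 0.23 in siOCT4-DMSO (SD, n = 3). The median siNT-DMSO level over all mRNA probes tested was 7.12, so the Tagln probe read below it. These values do not check the label of the cells, and the level of Oct4 itself was not analysed here.

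POVPC is a fragmented, oxidized phospholipid that forms in oxidized lipoproteins and acts on vascular cells in atherosclerotic lesions. Contractile SMC can leave their resting state and come to secrete cytokines, migrate and divide. OCT4, known as a pluripotency factor, is also made in SMC during this switch. The named members described below include secreted cytokines, a MAPK phosphatase, an enzyme of serine synthesis, proteins of ribosome assembly, BH3-only cell death genes and olfactory receptors.

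The promoters of Cxcl10 and Dusp5 are shown because they hold known binding motifs of stimulus-responsive genes close to the start. Each is the 250 bases before the RefSeq start in GRCm38.p6, written 5′ to 3′ along the gene's strand. Cxcl10 lies at chr5:92348890-92349139 on the minus strand, and the capitals mark matches to the kappa-B consensus and to TGANTCA, the AP-1 type motif.
Cxcl10: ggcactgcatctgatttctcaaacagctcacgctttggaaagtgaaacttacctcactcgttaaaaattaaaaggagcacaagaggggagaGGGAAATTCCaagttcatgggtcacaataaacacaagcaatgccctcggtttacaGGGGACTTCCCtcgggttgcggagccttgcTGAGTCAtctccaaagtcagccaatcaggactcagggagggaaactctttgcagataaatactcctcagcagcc
Dusp5 lies at chr19:53528895-53529144 on the plus strand, and the capitals mark 2 adjacent CArG boxes, the motif of serum response factor, and TGACGT on the reverse strand.
Dusp5: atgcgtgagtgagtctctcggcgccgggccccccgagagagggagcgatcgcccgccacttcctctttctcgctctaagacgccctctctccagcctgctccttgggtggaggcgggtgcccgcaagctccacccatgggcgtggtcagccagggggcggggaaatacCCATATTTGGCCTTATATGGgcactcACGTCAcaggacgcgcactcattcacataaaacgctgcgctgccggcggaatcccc

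RefSeq promoter windows of 300 bases, with 50 after the start, were found for 32 of the named members, 36 windows in all. TGACGT, the core of the cAMP response element, was in 6 of the 36 on either strand (16.7%), against 7.51% of all 32851 windows. These windows belong to 5 genes, Dusp5, Nop58, Psph, Tmem251 and Utp15, and both of Tmem251's windows hold the same match, which is the whole TGACGTCA. The stretches around the match are given for the genes other than Dusp5.
Nop58, chr1:59684939-59684968, plus strand: agcgaccagaagTGACGTtacttcccagaa
Psph, chr5:129787229-129787258, minus strand: cgcccagttgcgACGTCAttgcgcatctga
Tmem251, chr12:102743658-102743687, plus strand: aagctgacagccTGACGTCAtgagaggccg
Utp15, chr13:98263024-98263053, minus strand: cgcctgcgctgcACGTCAtcttcccgcgac
TGANTCA was in 13.9% of the members' windows and 7.81% of all, the kappa-B consensus in 11.1% and 8.46%, and the CArG box in 2.78% and 1.63%. CACGTG was in 5.56% and 7.15%, and TATAAA in 5.56% and 13.6%. A match describes the letters in the window and is not a measured binding site.

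The sequences of the array's own probes were searched as well. The pentamer ATTTA, known from the RNA elements of short-lived cytokine transcripts, was in the 60-base probes of 8 of 45 named members (17.8%) and of 42 of the 811 other named mRNA probes (5.18%). The member probes were also poorer in G and C, with a median of 40% against 50%, and the part of base composition in the pentamer count was not tested. In the stretches below, chosen as members described further on, the capitals mark ATTTA, which overlaps itself in Csf2 and Yrdc.
Csf2: gaccattatATTTATTTAtatatt
Yrdc: ttatATTTATTTAttctgtacatt
Irs2: ataaaatacattATTTAtgaaatg
Cxcl10: atcaagaATTTAatgaaagcgttt
Hrk: cacttttATTTAaaaattgactgt

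Over the 84 members, the siNT-POVPC minus siNT-DMSO difference had a median of -1.55 and ran from -5.48 to -1.01 on the log2 scale, a median of 2.93-fold. In siOCT4 cells the median was -1.46, or 2.75-fold, and the highest value was -1. The lowest value measured above background on some POVPC array was -3.69, for Eid3. The median over all mRNA probes tested was -0.0152 in siNT and 0.00372 in siOCT4. With the members that were dim on all POVPC arrays taken at their lower bound, explained below for Cxcl10, or at 0 for the 3 without one, the siOCT4 median was -1.36. Counted so, 25 members were at least 4-fold lower in siNT cells and 12 in siOCT4 cells. As computed, without bounds, the counts were 25 and 16. The signal needed to count as well above background was higher on the siOCT4-POVPC arrays than on the siNT-POVPC arrays. Bounds are therefore tighter in siOCT4 cells, and the bounded values do not compare the backgrounds. Levels and differences here and below are log2 values recomputed from the scanner signals with quantile normalization, and 83 of the 84 meet the rule on them too.

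**Figure D1:**
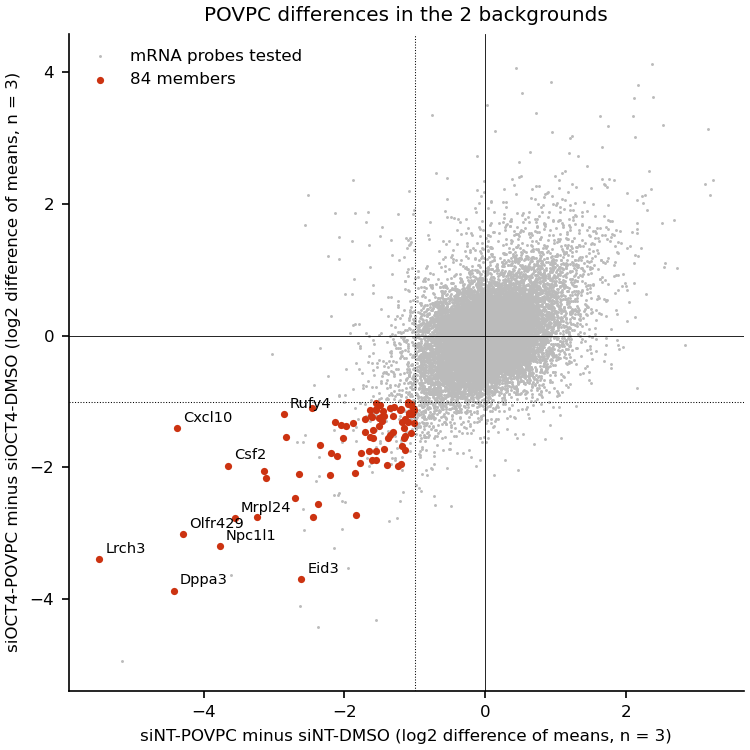
Each point is an mRNA probe, with the mean log2 difference POVPC minus DMSO in siNT cells on the x axis and in siOCT4 cells on the y axis, 3 arrays per group. The 84 members, in red, lie below the dotted lines at -1 because the rule put them there, from -1.01 down to Lrch3 at -5.48 in siNT cells, and grey points in the same corner did not meet the rule.

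In neither background did limma call any mRNA probe lower with POVPC at an adjusted p under 0.05 and a fold of at least 1.5 (0% of 20624 tested), and 0.00970% and 0.00485% were called higher. Without adjustment, limma gave 1164 lower mRNA probes in siNT cells and 1247 in siOCT4 cells. The methods' t-test gave 514 and 723 unadjusted and 0 and 0 after adjustment. The difference as computed, values at the floor included, was the larger in siNT cells for 50 members and in siOCT4 cells for 34. A limma contrast between the POVPC differences of both backgrounds passed an adjusted p of 0.05 for 0 members and 0 mRNA probes. The smallest limma adjusted p of a member was 0.562. The rule chose the members by these same differences, so the count and the contrast are descriptions.

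The members moved together from array to array within a group. siNT-DMSO 2 was the highest of its group for 73 of the 84, against 39.2% of all mRNA probes tested. siOCT4-DMSO 1 was the lowest of its group for 69 members (30.6% of all probes), and siNT-POVPC 3 the highest for 69 (47.6%). The members' median on siNT-DMSO 2 was 0.82 above the siNT-DMSO mean, and that on siNT-DMSO 1 was -0.67. On siOCT4-DMSO 1, 2 and 3 it was -0.75, 0.25 and 0.45 from the siOCT4-DMSO mean. The siOCT4-POVPC arrays were alike, at -1.43, -1.52 and -1.42, and the siNT-POVPC arrays lay at -1.79, -1.71 and -1.24. Without siNT-DMSO 2, 63 probes met the rule, 60 of them members, and without siNT-POVPC 3, 263 did, 81 of them members. Without siNT-DMSO 1 the count was 157. Within the slide of the siOCT4-POVPC arrays, against siOCT4-DMSO 3 alone, the median difference was -1.98 and 71 members were at -1 or below. Against siOCT4-DMSO 1 and 2, on the other slide, the median was -1.25.

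**Figure D2:**
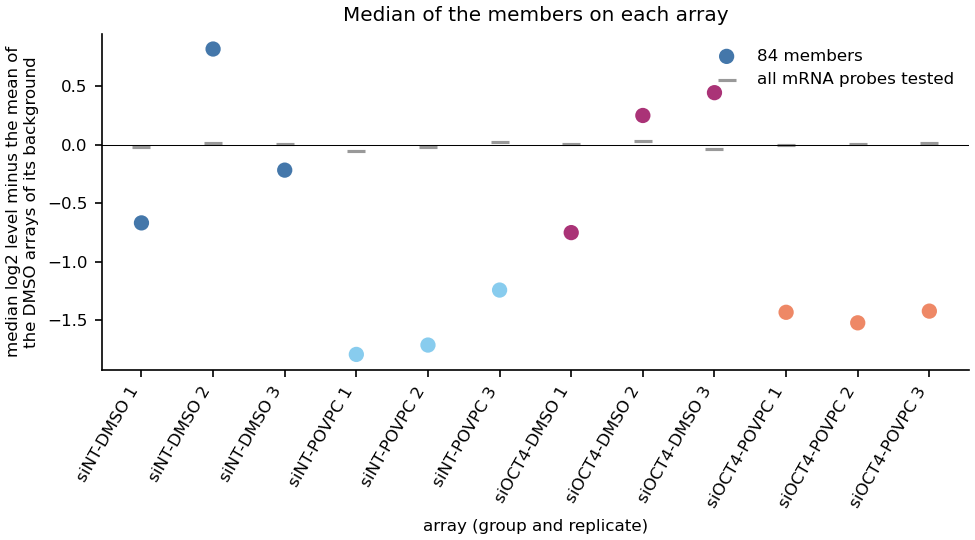
Points give, for each of the 12 arrays on the x axis, the median over the 84 members of the log2 level minus the mean of the DMSO arrays of the same background, and grey bars give the same over all mRNA probes tested. The DMSO arrays spread from -0.67 to 0.82 in siNT and from -0.75 to 0.45 in siOCT4 cells, while the grey bars stay near 0.

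**Figure D3:**
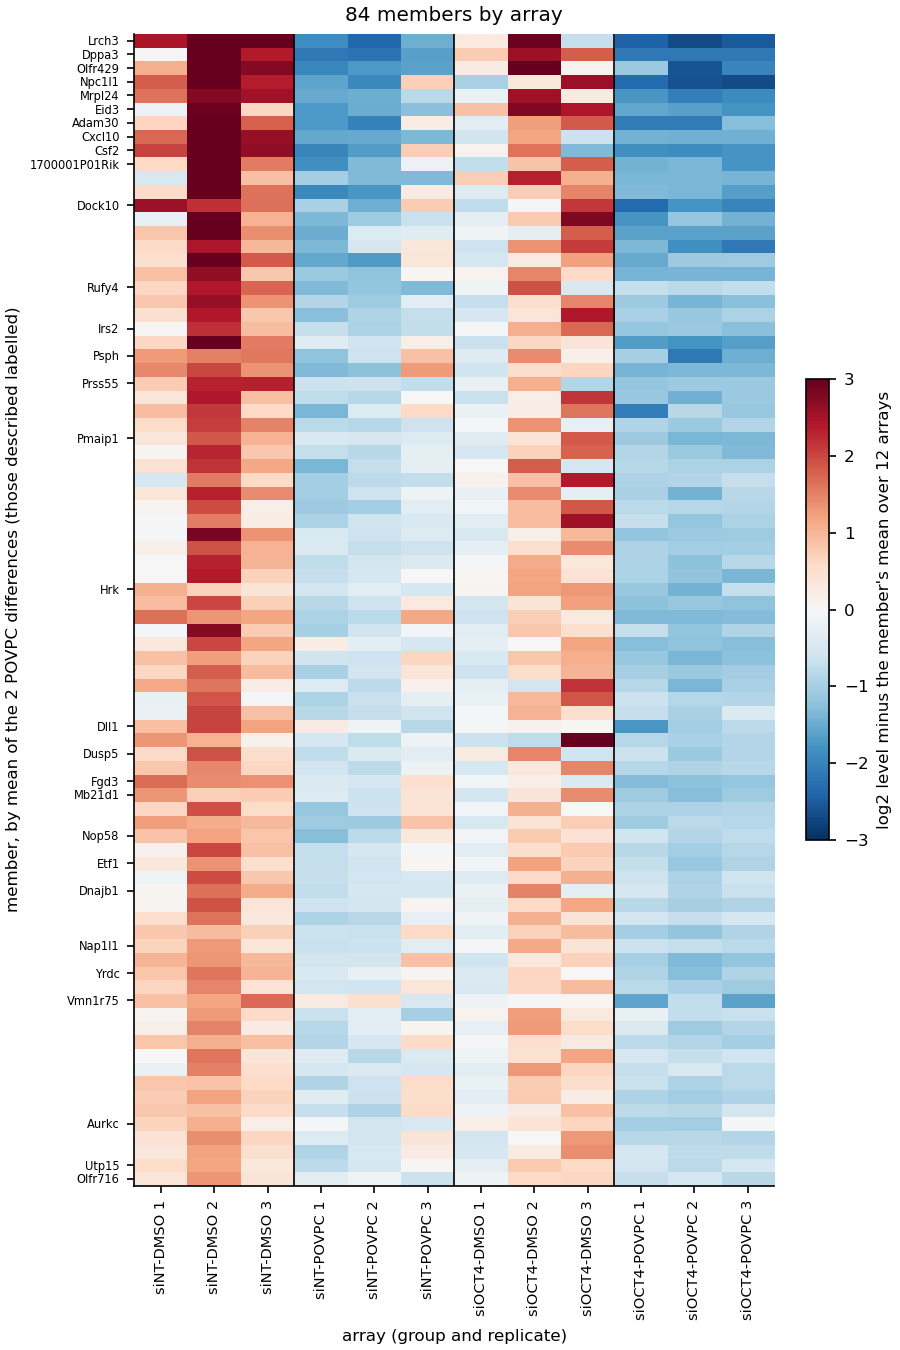
Rows are the 84 members, sorted by the mean of both POVPC differences, columns are the 12 arrays, and colour is the log2 level minus the member's mean, cut at 3 either way. siNT-DMSO 2 is the reddest column for most rows and the siOCT4-POVPC columns are the bluest.

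Secreted cytokines were among the named members. Csf2 (chr11:54247271-54249667, GRCm38) encodes GM-CSF, which drives myeloid cells. Its log2 level was 14.50, 15.82 and 15.12 in siNT-DMSO and 10.48, 10.79 and 13.20 in siNT-POVPC. In siOCT4-DMSO it was 12.58, 14.10 and 11.14, and in siOCT4-POVPC 10.62, 10.58 and 10.71. The mean was 12.6-fold lower with POVPC in siNT cells and 3.93-fold lower in siOCT4 cells, and siOCT4-DMSO 3 lay just above the POVPC arrays.

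Cxcl10 (chr5:92346638-92348882) encodes a chemokine that draws T cells through CXCR3. The shown probe for it is printed here because the same bases carry its ATTTA. This probe has 1 reading frame without a stop codon, so the ATTTA may lie in coding sequence rather than in a UTR.
Cxcl10 probe: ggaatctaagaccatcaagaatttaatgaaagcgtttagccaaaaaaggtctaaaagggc
Its level was 5.57, 8.27 and 6.48 in siNT-DMSO. No POVPC array of either siRNA read it well above background, and it stood there between 2.33 and 2.51, at or near the floor. With POVPC, siNT cells were at least 14.1-fold lower. Such a bound sets the bright group's mean against the lowest signal that counts as well above background on the dim arrays. In siOCT4-DMSO the level was 3.27, 5.03 and 3.21, and only 1 of the 3 arrays was well above background, so no fold is given there.

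The list of chemokines, cytokines and growth factors has 9 named probes for 41 genes, and only Csf2 and Cxcl10 are members. The others ranged in siOCT4 cells from -0.48 for Fgf21, a metabolic hormone, to 2.01 for Vegfd, a lymphatic growth factor. Ccl5, a T cell chemokine, had a difference of -1.90 in siNT cells and 0.63 in siOCT4 cells. Since the named probes were chosen by the authors for their POVPC response in siNT cells, no list has a neutral background. Of interferon-induced genes with 7 named probes, 1 is a member, Mb21d1, which encodes the DNA sensor cGAS. Its level was 10.52, 9.91 and 9.96 in siNT-DMSO and 8.78, 8.54 and 9.59 in siNT-POVPC, and 8.64, 9.59 and 10.61 against 8.13, 7.90 and 8.12 in siOCT4 cells. No member is among the 6 named probes of NF-kB subunits, inhibitors and regulators.

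Irs2, Dusp5, Dock10 and Fgd3 encode proteins of signalling inside the cell. Irs2 encodes the adaptor that carries the insulin and IGF signal. Its level was 11.65, 13.82 and 12.56 in siNT-DMSO against 10.93, 10.67 and 10.89 in siNT-POVPC, and 11.56, 12.72 and 13.35 against 10.47, 10.52 and 10.38 in siOCT4 cells. The DMSO arrays were spread widely in both backgrounds while the POVPC arrays lay close together. Dusp5 (chr19:53529109-53542431) encodes the nuclear phosphatase that switches off ERK and is itself a product of ERK signalling. Its level was 11.78, 13.12 and 11.74 in siNT-DMSO and 10.45, 10.78 and 10.90 in siNT-POVPC. In siOCT4 cells it was 11.48, 12.68 and 10.61 with DMSO and 10.56, 10.11 and 10.34 with POVPC, where siOCT4-DMSO 3 lay just above the highest POVPC array. Dusp5 is the only member among the 8 named probes of growth factor receptor ligands and MAPK feedback, and none is among the 6 of immediate-early transcription factors.

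Dock10, an exchange factor for small GTPases, was 6.52-fold lower with POVPC in siNT cells and 5.53-fold lower in siOCT4 cells. Fgd3 (chr13:49261554-49309240), an exchange factor for Cdc42, was read well above background on every array. It was at 10.27, 10.02 and 9.97 in siNT-DMSO, 8.16, 8.10 and 9.10 in siNT-POVPC, 8.51, 8.81 and 8.18 in siOCT4-DMSO and 7.31, 7.38 and 7.44 in siOCT4-POVPC. The antisense lncRNA AK086870 (chr13:49259043-49261793, plus strand) overlaps the end of Fgd3 and was read by a probe of its own. It was at 6.87, 6.09 and 6.93 in siNT-DMSO and 8.11, 7.83 and 8.46 in siNT-POVPC, so that its groups did not overlap and lay the other way round from those of Fgd3. In siOCT4 cells it was at 6.23, 6.52 and 8.18 with DMSO and 6.53, 7.11 and 6.61 with POVPC, and these overlap. The study picked AK086870 by its POVPC response in siNT cells, so that response is a description as well.

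The list of amino acid response and one-carbon metabolism has 8 named probes, Psph among them. Psph, phosphoserine phosphatase, makes serine in the last step of its synthesis. The sequence of its probe is shown as the stretch that was measured, and whether it is coding or UTR was not resolved for any probe here.
Psph probe: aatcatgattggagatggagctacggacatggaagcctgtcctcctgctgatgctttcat
Psph was at 13.45, 13.66 and 13.73 in siNT-DMSO and 10.96, 11.53 and 13.03 in siNT-POVPC. In siOCT4 cells it was at 11.77, 13.59 and 12.32 with DMSO and 11.16, 10.02 and 10.69 with POVPC. The probes of Nars, Sesn2, Tyms, Mat2a, Fgf21 and Eprs, which are not members, had negative differences in both backgrounds, from -1.65 to -0.73 in siNT and from -1.21 to -0.48 in siOCT4 cells. Npc1l1, known as the sterol transporter of the gut, was at 7.75, 10.28 and 8.28 in siNT-DMSO and at most 6.64 in siNT-POVPC. It was at least 5.87-fold lower in siOCT4-POVPC, where no array was well above background.

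Ribosome assembly had Nop58 and Utp15 as members, from 14 named probes. Nop58 is a core protein of the snoRNPs that methylate ribosomal RNA. Its level was 15.33, 15.69 and 15.31 in siNT-DMSO, 13.21, 13.67 and 14.79 in siNT-POVPC, 14.41, 15.26 and 14.91 in siOCT4-DMSO and 13.89, 13.61 and 13.73 in siOCT4-POVPC. Utp15, a subunit of the small subunit processome, was near the limit of the rule with mean differences of -1.10 and -1.004. In siOCT4 cells 13 of the 14 probes of this list lay below 0, with a median of -0.76, and in siNT cells the median was -0.88. Mrpl24, a protein of the large mitochondrial ribosomal subunit, was at 11.04, 12.17 and 11.93 in siNT-DMSO and 7.90, 7.95 and 8.62 in siNT-POVPC. It was at 9.21, 11.95 and 9.68 in siOCT4-DMSO and 7.68, 7.36 and 7.50 in siOCT4-POVPC, which is 11.8-fold and 6.82-fold lower with POVPC. No member is among the 8 probes matched by the symbols of cytosolic ribosomal proteins. Etf1, the translation release factor, Yrdc, which modifies tRNA, Dnajb1, an Hsp40 chaperone, and Nap1l1, a histone chaperone, are members outside these lists.

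The list of BH3-only apoptosis genes has 8 genes, and only Pmaip1 and Hrk have a named probe. Both are members, but the list was written with the names of falling mRNAs in view, so this share is a description. Pmaip1 encodes Noxa, which releases mitochondrial death signalling. It was at 13.27, 14.79 and 13.97 in siNT-DMSO, 12.45, 12.41 and 12.52 in siNT-POVPC, 12.55, 13.33 and 14.76 in siOCT4-DMSO and 11.84, 11.55 and 11.58 in siOCT4-POVPC. Hrk encodes Harakiri of the same family. It was at 6.03, 5.67 and 5.37 in siNT-DMSO and 4.39, 4.63 and 4.44 in siNT-POVPC, and at 5.05, 6.19 and 6.28 against 3.84, 3.55 and 4.26 in siOCT4 cells. Hrk was well above background on 1 of the 3 siOCT4-POVPC arrays.

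**Figure D4:**
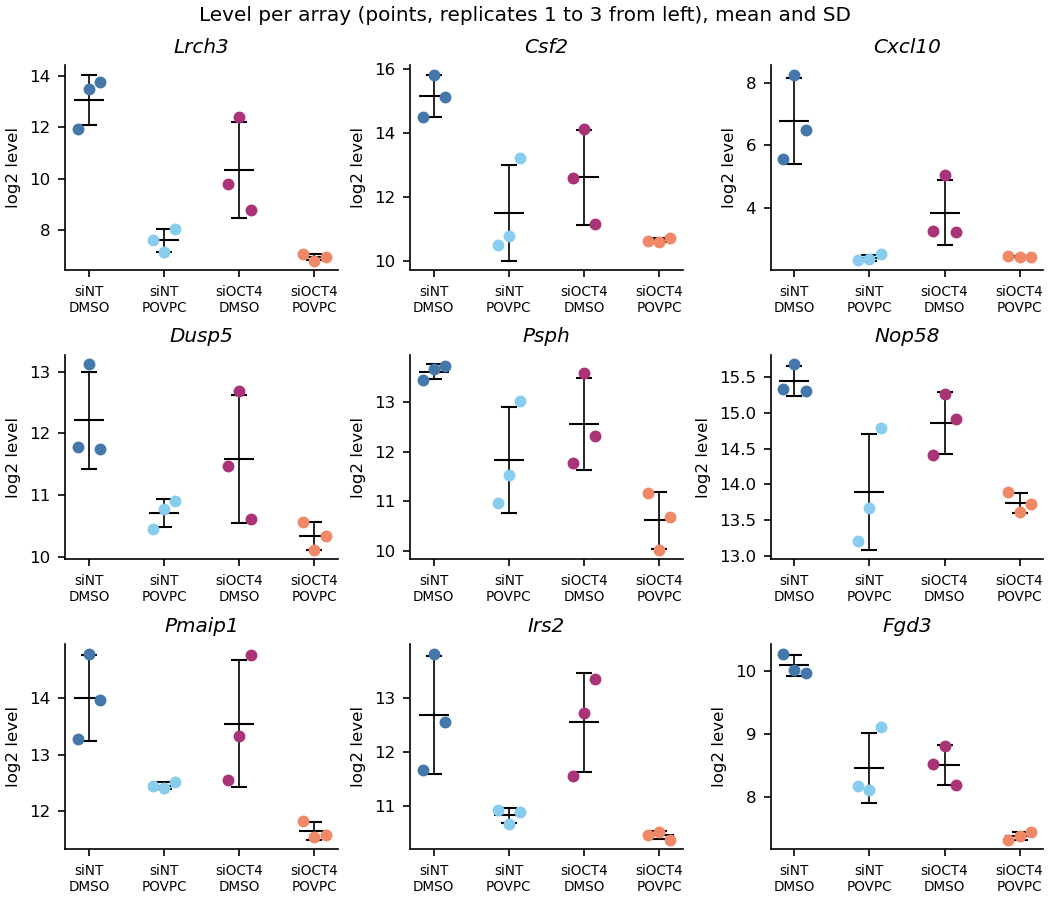
Each panel gives the log2 level of a member on the y axis, with its own range, for the 4 groups on the x axis, with points for replicates 1 to 3 and the mean with its SD. Within each siRNA the POVPC points lie below the DMSO points, as the rule requires, and Cxcl10 with POVPC lies between 2.33 and 2.51.

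Lrch3 (chr16:32914122-33013143), a protein with leucine-rich repeats and a calponin homology domain, had the lowest mean of both differences among the members, as computed. Members at the floor with POVPC, such as Dppa3, could have fallen further, so the rank against them is not exact. The Lrch3 probe is given because the result turns on it.
Lrch3 probe: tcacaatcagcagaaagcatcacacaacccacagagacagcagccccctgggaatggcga
Its level was 11.95, 13.50 and 13.78 in siNT-DMSO and 7.61, 7.14 and 8.03 in siNT-POVPC, a 44.7-fold lower mean. In siOCT4 cells it was 9.79, 12.42 and 8.80 with DMSO and 7.07, 6.81 and 6.96 with POVPC, a 10.5-fold lower mean. The siOCT4-DMSO arrays stood far apart, and all lay above the POVPC arrays.

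The other members among the 10 with the lowest means were often dim with POVPC. Dppa3, a maternal factor that guards DNA methylation in the early embryo, was at 4.61, 9.45 and 6.97 in siNT-DMSO. It was well above background on 1 of 3 siNT-POVPC arrays and on none of the siOCT4-POVPC arrays, where it was at least 4.85-fold lower. Olfr429, an olfactory receptor, was at 6.11, 8.77 and 7.76 in siNT-DMSO and 3.06, 3.29 and 3.41 in siNT-POVPC, and at least 4.34-fold lower in siOCT4-POVPC. Adam30, a metalloprotease of the testis, was 9.51-fold lower in siNT cells, with 1 of 3 siNT-POVPC arrays well above background, and at least 2.71-fold lower in siOCT4 cells. Eid3, which inhibits p300 and belongs to the SMC5/6 complex, was bright enough on all arrays. It was 6.14-fold lower in siNT and 12.9-fold lower in siOCT4 cells, where the order of sizes was the reverse of that of Lrch3, Mrpl24 and Csf2. 1700001P01Rik, with no known role, was 8.63-fold and 4.49-fold lower. Of 34 named olfactory and vomeronasal receptor probes, 3 are members, Olfr429, Vmn1r75 and Olfr716, and the median over the 34 was -0.03 in siNT and -0.29 in siOCT4 cells. In all, 67 members were well above background on all 12 arrays and 17 on fewer. The POVPC group was dim on all 3 arrays for 2 members in siNT cells and 15 in siOCT4 cells. These counts do not compare the backgrounds, because the lowest level that counts as well above background was higher on every siOCT4-POVPC array than on any siNT-POVPC array. Topaz1 had the higher mean in siOCT4-POVPC, yet it counted as dim there and as measured in siNT-POVPC.

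The other named members were Gm34653, Slc35d3, Rufy4, Sdcbp2, Plcxd2, Prss55, Kif28, Kif7, Wfdc3, Gm20219, Clba1, Tmem251, Tcim, Topaz1 and Aurkc, with the homeobox factors En2 and Pbx3. Just inside the limit of -1 lay Utp15 at -1.10 and -1.005, Aurkc, a kinase of meiosis, at -1.01 and -1.06, and an unnamed probe at -1.01 and -1.33 in siNT and siOCT4 cells in the authors' values. Just outside lay Usp31 at -0.99 and -1.16 and unnamed probes at -1.02 and -0.98 and at -0.98 and -1.42. Of 4 named fibroblast and 5 named skeletal muscle markers none is a member, and no endothelial or macrophage marker has a named probe. The median POVPC difference in siNT and siOCT4 cells was -1.0 and -0.07 for the skeletal muscle, -0.79 and 0.10 for the fibroblast and -0.81 and -0.12 for the 2 smooth muscle markers. The part of such cells in the result was not tested.

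The knockdown itself was not used by the rule, and it was compared at each treatment with limma across all probes. The arrays are those that chose the members, so the p-values are not independent of the choice. With DMSO, the members were lower in siOCT4 than in siNT cells by a median of -0.64, against -0.06 over all mRNA probes tested. The difference was below 0 for 77 of 84 members (91.7%), and for 55.4% of all. At an adjusted p under 0.05 and a fold of at least 1.5, 6 members were lower (7.14%) and 0 higher, where the background is 1.98% lower and 3.85% higher. The calls numbered 1 without siOCT4-DMSO 1 and at most 9 with 1 array left out. In 12 members all 3 siOCT4-DMSO arrays lay below all 3 siNT-DMSO arrays (14.3%), close to the 12.7% of all mRNA probes. The median rests in part on 2 arrays. It was -0.28, with 61 members below 0, without siNT-DMSO 2, and -0.32, with 60 below 0, without siOCT4-DMSO 1. Between the arrays of the first slide alone it was -0.91, with 81 below 0, and 2 members were called.

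Fgd3 was lower in siOCT4-DMSO than in siNT-DMSO by a log2 difference of -1.59 (SE 0.26, limma adjusted p = 0.00436), in 3 of 3 arrays. Cxcl10 had a fitted difference of -2.94 (SE 0.61, limma adjusted p = 0.0154), and its groups did not overlap. Only 1 of 3 siOCT4-DMSO arrays read Cxcl10 well above background, so this value is not a measured fold. Cxcl10 passed the filter through the 3 siNT-DMSO arrays, where it was high, so its call is a description. Without siOCT4-DMSO 1 its adjusted p by limma was 0.0653. Vmn1r75, a vomeronasal receptor, differed by -1.30 (adjusted p = 0.0298, limma, and 0.129 without siNT-DMSO 3) and Dll1, a ligand of Notch, by -1.34 (adjusted p = 0.0441, limma), both without overlap. The Dll1 call was lost without siNT-DMSO 2 (0.0975), with the slide as a block (0.0617) and with the replicate block (0.0584, limma adjusted p). Prss55, a serine protease of the testis, differed by -1.81 (limma adjusted p = 0.0466), with overlapping arrays, and lost its call with the slide as a block (adjusted p = 0.0899, limma) and in 18 of 26 alternatives in all. The remaining call was Yrdc, at -1.09 (adjusted p = 0.0457, limma), chosen here after its value was seen, and its call was lost with the replicate block. With normexp background correction, the differences of 3 probes with low signals were smaller, at -1.21 for Cxcl10 (limma adjusted p = 0.066), -0.44 for Vmn1r75 and -0.50 for Dll1, and none of these stayed called. Lrch3 differed by -2.74 (SE 0.76) and Csf2 by -2.54 (SE 0.77), and their limma adjusted p of 0.0555 and 0.0752 did not pass, although for Csf2 the arrays did not overlap. Eid3 had the highest value of all members, 0.89, at a limma adjusted p of 0.459.

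Beside the 1.98% of all mRNA probes, and the 57 of 166 probes that met the condition in siNT cells only, the calls for lower levels in siOCT4-DMSO were 2 of 9 named cytokine probes (Cxcl10 and Ccl5), 2 of 7 interferon-induced, 1 of 8 growth factor and MAPK, 3 of 14 ribosome biogenesis, 1 of 8 amino acid and one-carbon, 0 of 2 BH3-only and 6 of 34 receptor probes. In lists without a member they were 4 of 6 immediate-early, 1 of 6 NF-kB and 2 of 8 ribosomal protein probes. The named probes were picked for their difference from the same siNT-DMSO arrays, so these shares are descriptions. Calls for higher levels were 2 of the 34 receptor probes and none in the others. Ccl5 differed by -2.49, Gbp2, an interferon-induced GTPase, by -2.29, and Mat2a, which makes S-adenosylmethionine, by -1.27.

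With POVPC, siOCT4 was below siNT by a median of -0.47 over the members, against -0.08 over all mRNA probes. Without siNT-POVPC 3 it was -0.27, with 64 rather than 78 members below 0. The calls were 2 lower (2.38%) and 0 higher, below the background of 3.49% and 6.67%. In 42 members all siOCT4-POVPC arrays lay below all siNT-POVPC arrays (50%, background 25.7%), and these arrays were on different slides. Fgd3 was lower by -1.08 (SE 0.26, limma adjusted p = 0.0216). Vmn1r75 differed by -1.42 (limma adjusted p = 0.0136), but none of the siOCT4-POVPC arrays read it well above background, so it was only at least 1.08-fold lower. Both calls were lost without siOCT4-POVPC 1, where the limma adjusted p was 0.0741 for Fgd3 and 0.0598 for Vmn1r75. Fgd3 and Vmn1r75 were the 2 members called in both comparisons. Rufy4 alone had all siOCT4-POVPC arrays above all siNT-POVPC arrays, at 5.27 to 5.37 against 4.75 to 4.92.

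**Figure D5:**
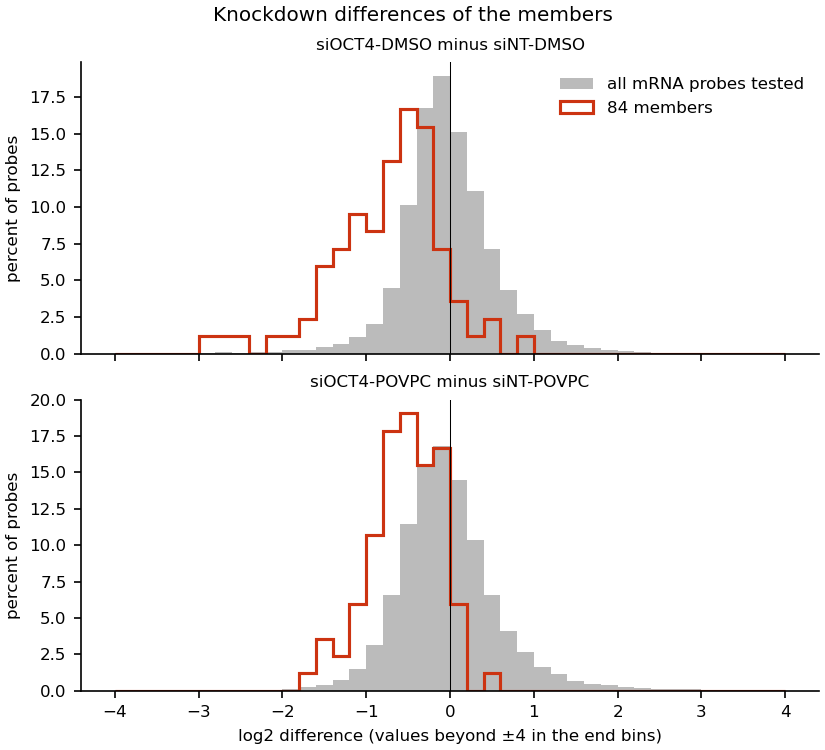
Histograms of the log2 difference siOCT4 minus siNT with DMSO (top) and with POVPC (bottom), as percent of probes, for the 84 members (red line) and all mRNA probes tested (grey). The members' medians are -0.64 and -0.47, left of those of all probes at -0.06 and -0.08.

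The probes that met the condition in only 1 background differed from the members in level and in the knockdown difference. In siNT-DMSO the median level was 9.71 for the members, 7.59 for the 166 tested probes of siNT cells only and 9.04 for the 384 of siOCT4 cells only. The median siOCT4-DMSO minus siNT-DMSO difference was -0.64, -1.0 and -0.205. Calls for lower levels there numbered 6 of 84, 57 of 166 and 2 of 384. These sets were made from the same DMSO arrays, so the order is a description.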

How the data were processed

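RNA of mouse aortic SMC was hybridised to 12 single-colour Arraystar lncRNA/mRNA arrays. The deposited scanner files hold an intensity per spot, background-subtracted by Agilent Feature Extraction (version 11.0.1.1). The authors also gave log2 values of 60641 probes after quantile normalization in GeneSpring, according to their methods. The rule was applied to that deposited log2 table. For levels and tests, outlier spots were removed, processed signals under 5 were raised to 5, and their log2 values were quantile normalized. The 54503 probes above background (as the scanner software marks them) on 3 or more arrays (of which 20624 mRNA probes were considered) were fitted with a mean per group in limma 3.58.1 (R 4.3.3), with Benjamini-Hochberg adjustment over all of them. The fit was tested on simulated data. The other steps used Python 3.11.15 with pandas 2.3.3.

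Names, positions and probe sequences came from the study's mRNA table, whose columns of fold changes and p-values were not used; 44 of the 45 named members overlap the RefSeq gene of the same symbol in GRCm38. Another probe was left out by the rule, and a further named gene is not reported here. Named in the text were all named members in a gene list, the 10 with the lowest mean of both differences, up to 5 called members per direction and the probes nearest the limit. The members and lists were chosen with earlier results of these data known. The lists were also written with the study's names of falling mRNAs in view. Replicate numbers did not pair the samples. The methods' t-test is the unpaired one that the notes of the study's mRNA table name. Alternatives were other scalings, backgrounds, floors, filters, tests and thresholds, blocks, and each array left out.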

Additional observations from a re-analysis of the deposited data

How the results depend on the processing

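In place of 84 probes, the rule was met by 84 with 75th percentile scaling (69 of them members), 52 with normexp background correction (49 of them members), 258 at a limit of -0.58, 30 at -1.5 and 192 with overlap allowed, and between 63 and 263 with 1 array left out. The condition in siNT cells was met by 218 probes with 75th percentile scaling, 128 with normexp, 956 at -0.58, 93 at -1.5 and 489 with overlap allowed, and by 300 to 695 with 1 array left out, since fewer arrays overlap less often. In siOCT4 cells the counts were 662 with 75th percentile scaling, 261 with normexp, 1358 at -0.58, 152 at -1.5 and 555 with overlap allowed, and 408 to 990 with 1 array left out. In siOCT4-DMSO vs. siNT-DMSO, the 6 members called became 2 with normexp, 3 with no filter on dim probes, 1 with only the 2 groups compared, 2 with only slide 1, 0 with the methods' t-test after adjustment (8 at an unadjusted p) and 19 with limma at an unadjusted p, and 1 (without siOCT4-DMSO 1) to 9 with 1 array left out. In siOCT4-POVPC vs. siNT-POVPC, the 2 members called became 5 with 75th percentile scaling, 1 with normexp, 1 with a floor of 20, 1 with probes well above background on all arrays, 8 with only the 2 groups compared, 10 with the methods' t-test and 11 with limma at an unadjusted p, and 0 (without siOCT4-POVPC 1 or 3) to 3 with 1 array left out. The cause was not tested. The 75th percentile scaling moved the median of all mRNA probes from -0.06 to -0.17 in the first comparison and from -0.08 to -0.24 in the second, and the members' medians to -0.54 and -0.65. A replicate block left 4 and 2 members called, and same-numbered arrays did not deviate together throughout (r between -0.199 and 0.362). Yrdc left aside, the 7 knockdown differences named as calls stayed called in 117 of 174 alternatives. Many alternatives changed only the test, the filter or arrays outside the comparison and left the difference itself unchanged, so its sign could not turn there. Limma at an unadjusted p or with no fold limit could not end a call. Fgd3 stayed called in 25 of 26 with DMSO (largest adjusted p 0.131), Prss55 in 8 of 26 (largest 0.38). Of the 6 calls with DMSO, the replicate block ended those of Dll1 (adjusted p = 0.0584, limma) and Yrdc. Vmn1r75 with POVPC went to -0.13 with a floor of 20 (adjusted p = 0.677, limma, the largest of its alternatives). Signal over background limits the 17 members that were dim on some arrays.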
